A study of Mus musculus with 44 samples.

Results

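The genes described here are the Zfp zinc finger genes, the large mouse family whose symbols are the letters Zfp followed by a number. Members were all such symbols with a mean normalized count of at least 50 over the 4 RNA-seq libraries, with Zfp36 left out. This gave 272 genes, of 367 Zfp symbols with values and of 25865 genes with values in all. A further 94 symbols lay under the limit, and 14 of them had no read in any library. At the limit, Zfp583 lay just inside with a mean of 50.8 and Zfp184 just outside with a mean of 49.9. All 272 members passed the filter on low counts used for testing, a mean of at least 10, as did 12597 genes in all.

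The study asked which genes of mouse granulosa cells (GCs), the somatic cells that surround the oocyte, respond to growth differentiation factor 9 (GDF9), an oocyte-secreted ligand of the TGFβ family that signals through SMAD2 and SMAD3. Primary GCs were taken from the ovaries of immature, gonadotropin-primed female mice, cultured, and treated with recombinant mouse GDF9 or with vehicle for 4 h. RNA-seq was done on 2 libraries per treatment, from cells that per the study's methods came from SMAD3-PA/PA mice, in which both Smad3 alleles carry a PA tag. CUT&RUN, which releases the DNA under an antibody's target with a tethered nuclease, gave 40 samples: 2 replicates per antibody and treatment in SMAD3-PA/PA GCs and in SMAD2-HA/+ GCs, in which 1 Smad2 allele carries an HA tag. Every group carried a tagged allele, so none is wild type. Cells of several mice were pooled, and no source used here states that the replicates were separate cultures, so every p-value here speaks of the spread between libraries, which may be technical.

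Zinc finger proteins of this family read DNA through tandem fingers, each folded around a zinc ion. Many also carry a KRAB domain, which recruits the co-repressor TRIM28 and through it SETDB1 and other silencing enzymes, and these proteins are best known for keeping retrotransposons and imprinted loci repressed. Most such genes lie in clusters that arose by repeated duplication, which makes neighbours close relatives.

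The 4 libraries held 8827825 to 11416005 reads in genes. Members took a small and even part of them, 0.811% and 0.790% of counts with GDF9 and 0.796% and 0.791% with vehicle, or 70283 to 90257 reads per library. The granulosa markers Inha, Inhba, Foxl2 and Nr5a1 had high counts in every library. Fshr lay between 75.8 and 89.6, and Cyp19a1 and Amh stayed between 0.886 and 2.90. The defining theca markers Cyp17a1 and Insl3 lay between 0 and 2.01, while Aldh1a1, from the same list of 3, lay between 38646 and 42421. Among stroma markers, Col1a1 lay between 1307 and 1357, Dcn between 112 and 128, Pdgfra between 31.0 and 37.9 and Lum between 2.01 and 14.2. Among surface epithelium markers, Upk3b lay between 472 and 512, Krt19 between 54.0 and 75.5 and Lgals7 between 5.04 and 7.74. Mitochondrial transcripts took 3.38% and 3.07% of counts with GDF9 and 2.37% and 2.35% with vehicle, and the nuclear RNA Malat1 took 0.282% and 0.264% against 0.108% and 0.110%. Their part in the changes below was not tested. In bulk RNA, fewer cells of a type and less RNA per cell cannot be told apart.

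The finding turns on a few members, first of all Zfp786 and its neighbour Zfp398, which start in opposite directions on chromosome 6 and were both higher with GDF9, and Zfp791 on chromosome 8. Their promoters, from 250 bases before to 50 after the first listed start of each gene, are shown 5′ to 3′ on each gene's own strand (RefSeq, GRCm38.p6). Zfp786 lies at chr6:47830456-47830755 on the minus strand, Zfp398 at chr6:47835411-47835710 on the plus strand, and Zfp791 at chr8:85123046-85123345 on the minus strand. Capitals mark CAGAC, the core of the SMAD-binding element, and AGGGGGCGC, a run within the CTCF motif that was searched after these sequences were seen, each on either strand.
Zfp786: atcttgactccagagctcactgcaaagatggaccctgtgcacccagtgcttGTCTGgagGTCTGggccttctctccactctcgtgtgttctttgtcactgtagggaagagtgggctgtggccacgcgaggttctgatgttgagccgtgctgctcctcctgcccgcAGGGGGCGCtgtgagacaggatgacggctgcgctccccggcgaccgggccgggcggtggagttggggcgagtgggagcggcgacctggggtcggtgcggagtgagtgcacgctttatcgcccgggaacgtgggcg
Zfp398: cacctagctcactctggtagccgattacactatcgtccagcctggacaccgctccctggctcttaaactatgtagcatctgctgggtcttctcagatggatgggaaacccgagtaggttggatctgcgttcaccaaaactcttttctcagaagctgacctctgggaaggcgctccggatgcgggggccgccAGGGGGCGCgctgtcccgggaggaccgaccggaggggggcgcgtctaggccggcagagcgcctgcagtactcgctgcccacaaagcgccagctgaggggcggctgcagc
Zfp791: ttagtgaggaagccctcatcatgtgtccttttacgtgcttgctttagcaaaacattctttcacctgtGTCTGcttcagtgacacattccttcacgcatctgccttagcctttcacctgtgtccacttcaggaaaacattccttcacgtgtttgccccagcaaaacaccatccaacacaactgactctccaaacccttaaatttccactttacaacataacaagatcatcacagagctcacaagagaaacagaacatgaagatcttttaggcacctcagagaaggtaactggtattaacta
The Zfp786 promoter held CAGAC in 2 places and AGGGGGCGC in 1, the Zfp398 promoter held only AGGGGGCGC, in 1 place, and the Zfp791 promoter held CAGAC in 1 place. CAGAC is common. It occurred in 54.9% of the 224 member promoters in the sequence table, in 47.3% of those of 10019 tested genes and in 49.7% of all 27025. AGGGGGCGC occurred in 2.68%, 2.32% and 1.24% of them, in the same order. The promoters of Zfp786 and Zfp398 were rich in G and C (65.0% and 63.0%), that of Zfp791 was not (42.7%), and the median was 54.8% over members and 61.3% over tested genes.

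The family as a whole was centred near no change. The median log2 fold change (GDF9 over vehicle, on the scale of log2(normalized count + 1)) was 0.02, with the middle of the distribution between −0.07 and 0.12 (quartiles) and 5% of members beyond each of −0.21 and 0.31. The median over all tested genes was −0.01 (quartiles −0.09 and 0.09). Of the 272 members, 153 (56.2%) lay above 0, against 47.9% of all tested genes. With the same offset, the difference between the 2 GDF9 libraries had quartiles of −0.06 and 0.13 over members, and that between the 2 vehicle libraries −0.09 and 0.11. The fold change is a difference between means of 2 libraries and the replicate differences are between single libraries, so the widths are given side by side only.

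**Figure D1:**
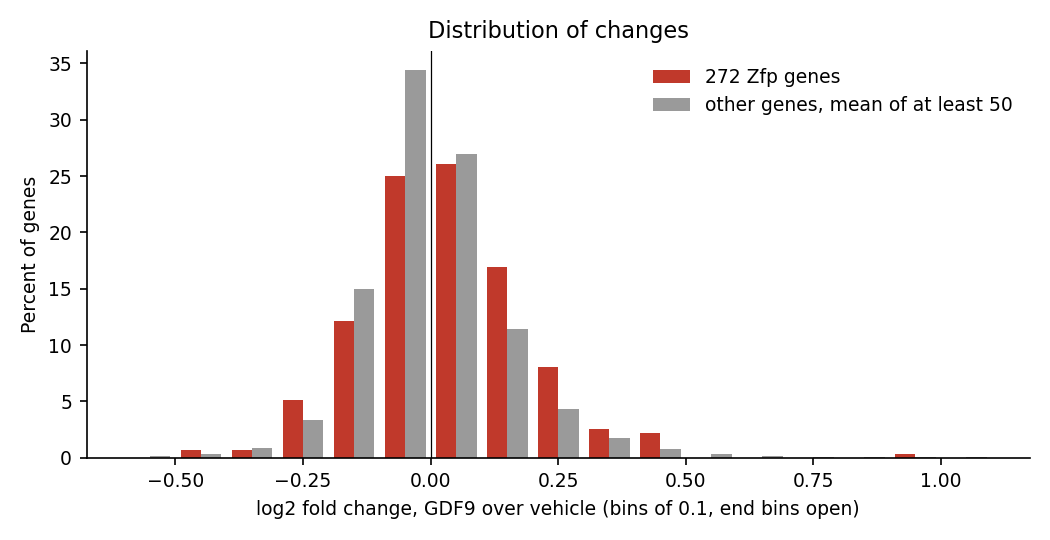
Percent of genes (vertical axis) in each bin of 0.1 of the log2 fold change, GDF9 over vehicle (horizontal axis), for the 272 Zfp genes (red) and the 10391 other genes with a mean of at least 50 (grey); the end bins are open. The red bars are lower than the grey ones from −0.2 to 0.1, higher from 0.1 to 0.5 and also higher from −0.3 to −0.2 and from −0.5 to −0.4; Zfp786, at 0.96, is the only member beyond 0.5.

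The small shift of the median rested on 1 library. Relative to each gene's mean over the 4 libraries, the median member lay at 0.04 (log2) in GDF9 replicate 1 and at −0.003 in GDF9 replicate 2. In vehicle replicates 1 and 2 it lay at −0.003 and −0.01. Only GDF9 replicate 1 stood apart, and without it the family median was 0.005, against 0.052 without GDF9 replicate 2.

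Both GDF9 libraries lay above both vehicle libraries for 77 members (28.3%), against 22.0% of all tested genes. Both lay below for 45 members (16.5%), against 23.2% of all tested genes. By limma with Benjamini-Hochberg adjustment over all tested genes, 8 members were called higher (adjusted p below 0.05 together with more than 0.18 on the log2 scale), which is 2.94% of members, and 2.44% of all tested genes were called higher. A single member was called lower, 0.368% of members against 0.707% of all tested genes. The share of members called was therefore close to that of the transcriptome in both directions. At an unadjusted p under 0.05 there were 34 members, 22 higher and 12 lower, which is 12.5% of members against 15.6% of all tested genes.

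**Figure D2:**
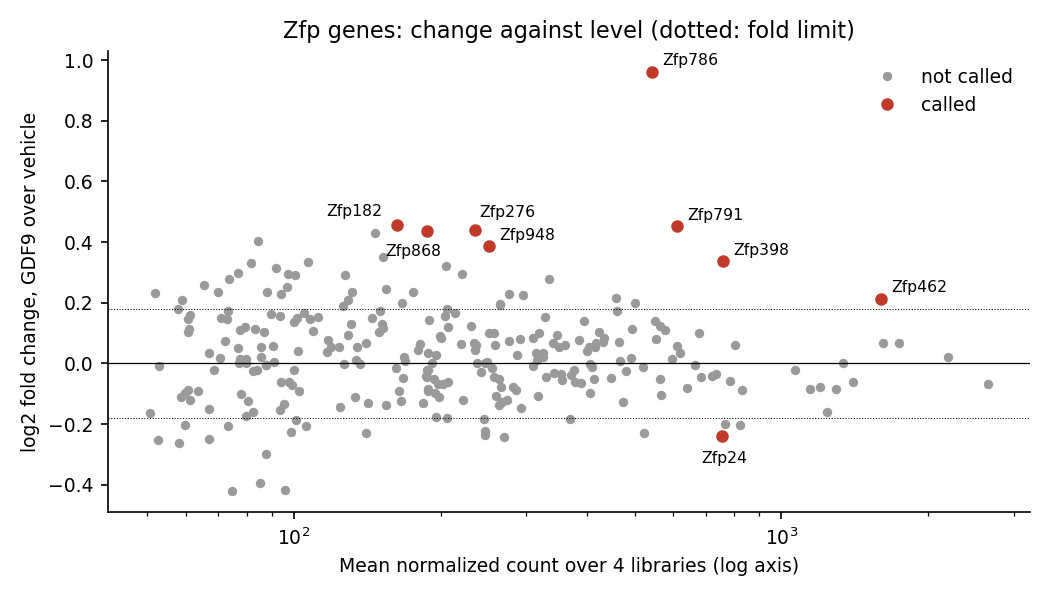
Log2 fold change, GDF9 over vehicle (vertical axis), against the mean normalized count over the 4 libraries (horizontal axis, log scale) for each of the 272 Zfp genes. The 9 called genes are red and named, the other 263 are grey, and dotted lines mark the fold limit of 0.18; Zfp786 lies far above the rest and no gene with a mean under 100 is called.

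Zfp786 was the outlier of the family. Its normalized count was 734 and 699 in the GDF9 libraries and 357 and 377 in the vehicle libraries. Both GDF9 libraries were far above both vehicle libraries, and the replicates of each treatment lay close together. The mean rose from 367 ± 14.3 to 716 ± 25.1 (SD, n = 2), a 1.95-fold difference. The log2 fold change was 0.96 (SE 0.07, limma, Benjamini-Hochberg adjusted p = 4.59e-11). The next member was 0.50 lower on the log2 scale. Only 11 of the 10663 genes with a mean of at least 50 had a log2 fold change this high, Zfp786 included. Its RefSeq coding sequence encodes 777 residues with 11 finger patterns and a KRAB pattern.

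Zfp398, which starts in the opposite direction from Zfp786, rose less. Its counts were 900 and 795 with GDF9 and 663 and 676 with vehicle, so the groups did not overlap although the 2 GDF9 libraries differed by more than the 2 vehicle ones. The log2 fold change was 0.34 (SE 0.06, limma, adjusted p = 0.00114). It encodes a KRAB protein with 7 finger patterns, and its human counterpart, ZNF398, has been described as acting downstream of TGFβ in pluripotent stem cells. Annotated spans were chr6:47815536-47836197 on the minus strand for Zfp786 and chr6:47835633-47873542 on the plus strand for Zfp398, so the spans overlap at their ends. The first listed starts of the 2 genes lay 5.16 kb apart. Only the first listed start of each gene was used for this distance and for the printed promoters.

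Zfp791 was the third member with a call that held without any 1 library. It had 683 and 729 normalized counts with GDF9 and 510 and 520 with vehicle, again without overlap. The log2 fold change was 0.45 (SE 0.07, limma, adjusted p = 3.10e-05). Zfp791 (chr8:85107168-85123095, minus strand) has a KRAB pattern and 15 finger patterns, and no other Zfp gene of the table lies within 500 kb of it.

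**Figure D3:**
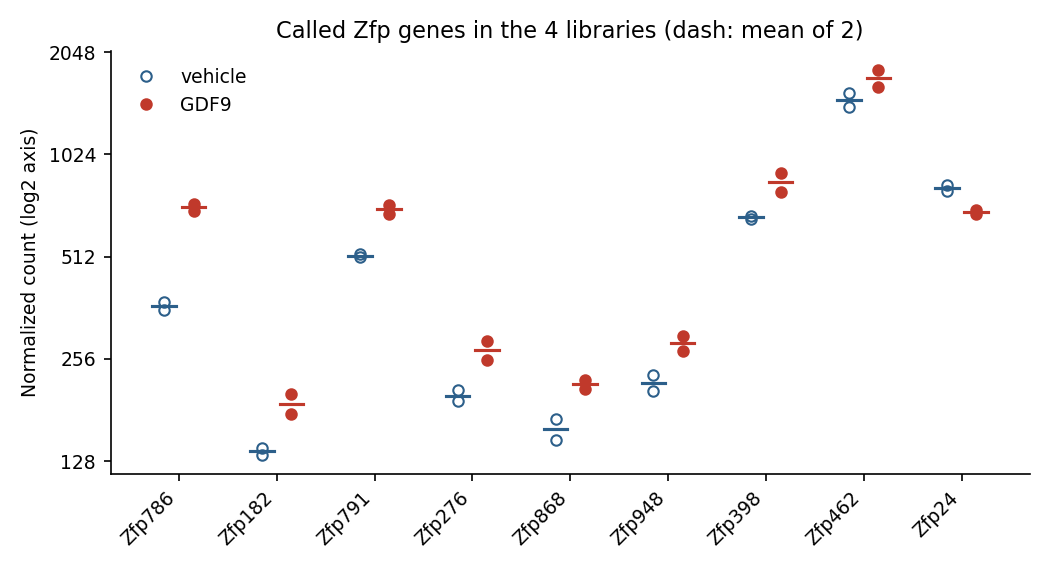
Normalized counts (vertical axis, log2 scale) of the 9 called Zfp genes, ordered by log2 fold change, in the 2 vehicle libraries (open blue) and the 2 GDF9 libraries (filled red), with a dash at the mean of each pair. In each gene both GDF9 libraries lie on 1 side of both vehicle libraries, and only Zfp24 is lower with GDF9.

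The remaining 5 genes called higher changed less or varied more. Zfp182, an X-linked KRAB gene, had 201 and 176 counts with GDF9 and 140 and 134 with vehicle (log2 fold change 0.46, SE 0.12, limma adjusted p = 0.0255). Zfp868, a KRAB gene on chromosome 8, had 223 and 208 against 148 and 170 (0.44, SE 0.11, limma adjusted p = 0.0234). Zfp948, a KRAB gene in the large cluster of chromosome 17, had 270 and 300 against 230 and 206 (0.39, SE 0.10, limma adjusted p = 0.0219). In each of these 3 genes the lower GDF9 library exceeded the higher vehicle library.

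The other 2 have no KRAB pattern. Zfp276, on chromosome 8, had 255 and 288 counts with GDF9 and 192 and 207 with vehicle (0.44, SE 0.10, limma adjusted p = 0.00926). It shares 777 exon bases with Fanca, a DNA repair gene, and 28 with Vps9d1, both on the opposite strand. The library kit keeps strand but the strand setting of the counting is not given in the sources used here, so reads over the shared bases cannot be assigned with certainty. Fanca was at 120 and 127 with GDF9 and at 105 and 110 with vehicle, and its difference did not pass the test (0.20, limma adjusted p = 0.529). Vps9d1 was at 205 and 167 against 125 and 155 and did not pass it either (0.41, limma adjusted p = 0.0783). Zfp462, a many-fingered protein (33 finger patterns in 2495 residues) known to keep lineage genes silent in pluripotent cells, had 1816 and 1619 against 1549 and 1411 (0.21, SE 0.05, limma adjusted p = 0.0210).

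Zfp24, which encodes a SCAN-domain protein needed for the maturation of oligodendrocytes, was the only member called lower. It had 683 and 702 counts with GDF9 and 835 and 799 with vehicle, without overlap (log2 fold change −0.24, SE 0.06, limma adjusted p = 0.0209).

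These 6 calls depended on single libraries, whereas those of Zfp786, Zfp791 and Zfp398 were kept in all 4 fits that left out 1 library. Each such fit has 1 library on 1 side, which is assumed to vary like the pair left on the other. In the limma fits, Zfp276 was no longer called once GDF9 replicate 2 or vehicle replicate 1 was left out (adjusted p = 0.0957 and 0.121), nor was Zfp948 without GDF9 replicate 2 or vehicle replicate 2 (0.143 and 0.207). Zfp868 needed both first replicates, and was not called without GDF9 replicate 1 or vehicle replicate 1 (limma adjusted p = 0.141 and 0.303), nor was Zfp462 without GDF9 replicate 1 or vehicle replicate 2 (0.231 and 0.342). Zfp182 and Zfp24 were called only when GDF9 replicate 2 was the library left out, with limma adjusted p from 0.0637 to 0.295 in the other 3 fits. By DESeq2 on the recovered reads only Zfp786 and Zfp791 were called, and Zfp398 had an adjusted p of 0.0774.

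Just short of the limit lay Zfp692, a gene without a KRAB pattern, with 162 and 174 counts against 114 and 136 (log2 fold change 0.43, SE 0.13, limma adjusted p = 0.0581). Zfp975 and Zfp944 complete the 10 highest members, with log2 fold changes of 0.40 and 0.35 (limma adjusted p = 0.223 and 0.124). At the low end, Zfp286 (−0.42), Zfp850 (−0.42), Zfp783 (−0.39), Zfp618 (−0.30) and Zfp658 (−0.26) had larger negative values than Zfp24, with limma adjusted p from 0.150 to 0.564. Their means lay between 58.2 and 96.0 counts, where SEs were 0.16 to 0.19. Zfp472 and Zfp764 follow at −0.25 each, and both turned positive without GDF9 replicate 1 (0.09 and 0.01). Zfp319 (−0.24) and Zfp790 (−0.24) close the 10 lowest members.

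Called members are set beside all tested genes of the same level. None of 72 members with a mean from 50 to under 100 was called by limma, edgeR or DESeq2 (4 had an unadjusted limma p under 0.05). Of all tested genes at that level, 1.62% were called by limma. From 100 to under 200 the limma calls were 2 of 69 members (2.90%, against 2.13% of all genes of that level), and from 200 to under 400 they were 2 of 73 (2.74%, against 2.06%). From 400 up they were 5 of 58 (8.62%, against 4.87%). On a per-length scale (mean reads per kilobase of exon, scaled to library size, RPKM), members ran from 0.782 to 51.8 with a median of 5.05. The highest were Zfp53 (51.8), Zfp207 (43.2), Zfp52 (35.6), Zfp330 (30.9) and Zfp664 (28.9). Zfp207 encodes a spindle protein, and Zfp52 and Zfp53 are neighbours on chromosome 17. None of these 5 was called in the limma fit of all 4 libraries, with log2 fold changes from −0.23 in Zfp330 to 0.07 in Zfp53; Zfp330 was called with the replicate block and without GDF9 replicate 2. Zfp398, Zfp791 and Zfp786 were at 21.5, 20.4 and 18.8 on this scale.

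Apart from the pair on chromosome 6, no cluster of 5 or more members held more than 1 call. Members were most numerous on chromosomes 7 (63, none called by limma, edgeR or DESeq2 and 7 with an unadjusted limma p under 0.05), 17 (37, 1 called) and 8 (21, 3 called). The share called by limma was 14.3% on chromosome 8, against 3.14% of all tested genes. On chromosome 17 it was just under that of all tested genes. Shares of all tested genes by chromosome were not computed, so whether the counts on any chromosome are unusual was not tested. Chains of members with gaps of at most 500 kb made 11 clusters of 5 or more, with 101 members. Their medians ran from −0.10 in the 11 genes from Zfp84 to Zfp146 on chromosome 7 to 0.05 in the 10 genes from Zfp786 to Zfp775 on chromosome 6. The largest, 22 genes on chromosome 17, had a median of −0.004 with Zfp948 its only call. The 181 members with another Zfp gene of the table within 500 kb had a median of 0.01 and 6 calls (3.31%). The 91 without had 0.06 and 3 calls (3.30%), so both shares were near that of all tested genes (3.14%).

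Within the chromosome 6 cluster, which spans 806 kb, no gene other than the pair was called. Zfp282, the next member, had 528 and 508 counts with GDF9 and 539 and 506 with vehicle (log2 fold change −0.01). Zfp212 followed at −0.11, and Zfp777, Zfp746, Zfp467 and Zfp775 lay between −0.10 and 0.15. Zfp783 (82 and 66 against 88 and 105) and Zfp956 (119 and 119 against 86 and 103) had log2 fold changes of −0.39 and 0.33, opposite in sign, and neither passed the test (limma adjusted p = 0.235 and 0.252). These 2 genes share 193 exon bases on the same strand, so how their reads were divided is uncertain.

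**Figure D4:**
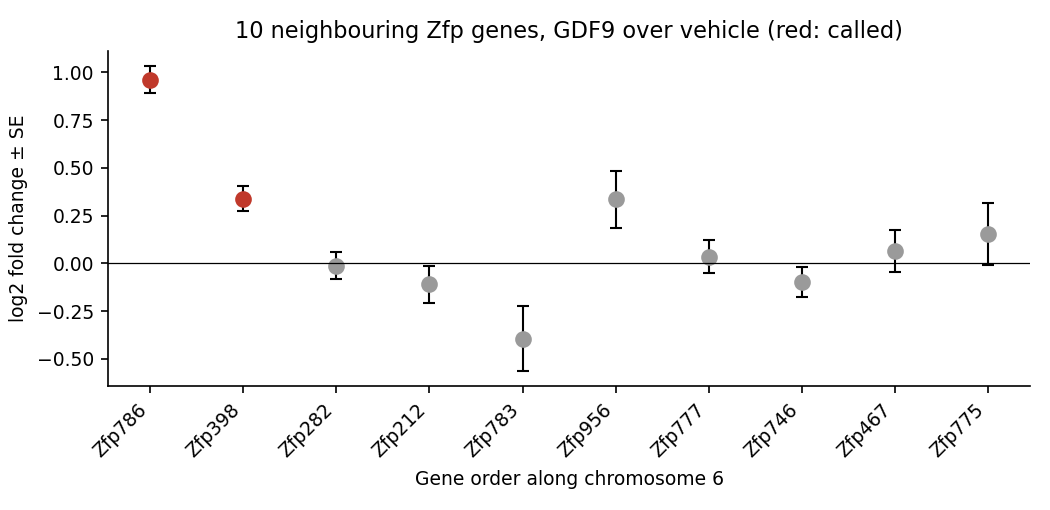
Log2 fold change, GDF9 over vehicle, with its SE from limma (vertical axis), for the 10 Zfp genes of the chromosome 6 cluster in their order along the chromosome (horizontal axis). The called genes, Zfp786 (0.96) and Zfp398 (0.34), are red and adjacent, and the other 8 run from −0.39 to 0.33.

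By structure, finger patterns ranged from 0 to 36 with a median of 11 over the 271 members with a coding sequence. A strict KRAB pattern was found in 114 of them, whose median log2 fold change was 0.04 with 6 called higher, and not in 157, with a median of 0.01, 2 called higher and 1 lower. These were 5.26% and 1.91% of each group called, against 3.14% of all tested genes. With a looser pattern, found in 134, the medians were 0.03 and 0.02. The 9 SCAN-pattern members, Zfp24 among them, had a median of −0.08. Over members, the log2 fold change had a Spearman rho of 0.05 with the number of fingers, −0.11 with exonic length and −0.05 with the mean count, with all points from the same 4 libraries.

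**Figure D5:**
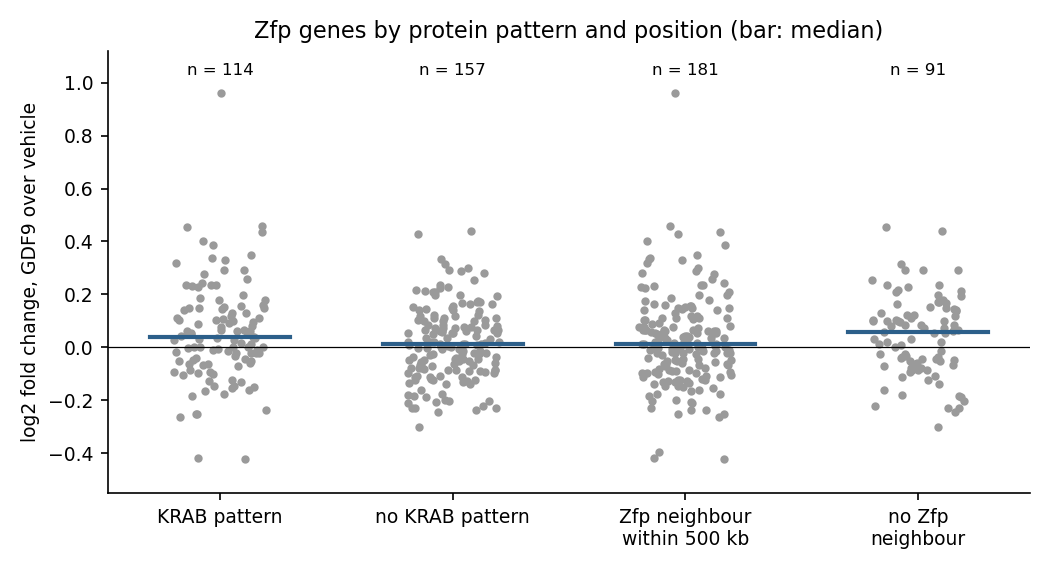
Log2 fold change, GDF9 over vehicle (vertical axis), of single Zfp genes (grey points, spread sideways at random) with and without the strict KRAB pattern and with and without another Zfp gene within 500 kb; blue bars are medians. The 4 medians lie between 0.01 and 0.06, inside the spread of each group, and Zfp786 is the point at 0.96.

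A list of described roles held 20 members and left out others, such as Zfp24, whose role is given above. Of the 20 listed members, 1 was called, Zfp462, which is 5% of them against 3.14% of all tested genes called in either direction. Their median log2 fold change was −0.02. Zfp57, which protects imprinted methylation, had 140 and 137 counts with GDF9 and 118 and 121 with vehicle (log2 fold change 0.21, limma adjusted p = 0.466). Zfp445, its partner in that role, was at 1727 and 1839 against 1687 and 1715 (0.07, limma adjusted p = 0.540). Zfp568, which represses a placental form of Igf2, lay at −0.10, Zfp809, which silences retroviral DNA, at 0.04, and Zfp281 and Zfp217, regulators of cell identity, at −0.06 and −0.01.

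The 26 genes listed as TRIM28 partners held Trim28, Setdb1 and also broader chromatin and DNA methylation genes such as Dnmt1 and Uhrf1. Of these 26 genes, 1 was called. That is 3.85% of the list, against 3.14% of all tested genes called in either direction. Trim28 itself was at 2587 and 2638 counts against 2689 and 2642 (log2 fold change −0.03), and Setdb1 had a log2 fold change of 0.01. Uhrf1, which maintains DNA methylation after replication, was called lower, with 283 and 254 counts against 351 and 328 (−0.34, SE 0.09, limma adjusted p = 0.0293). This call was lost without GDF9 replicate 2 or either vehicle library.

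At the chromatin, an H3K27ac peak, a mark of active promoters and enhancers, overlapped the 3 kb on either side of the start in both replicates for 217 members (79.8%) in SMAD3-PA/PA GCs with GDF9 and for 209 (76.8%) with vehicle. Among the other genes that reached a mean of 50 the shares were 76.4% and 76.5%. Among all 12432 tested genes with a RefSeq match they were 69.5% and 69.6%. Neither set was matched to the members in level. Of the 272 members, 58 had a mean of at least 400, as did 5439 of the 10663 genes that reached a mean of 50. In SMAD2-HA/+ GCs the peak was at 79.8% and 74.3% of members, against 85.0% and 82.3% of other genes at or above a mean of 50. The peak was present in all 8 lists for 175 members. Of the 9 called members, 8 had it in all 8 lists, Zfp786 and Zfp398 included, and Zfp182 was the exception. The windows of Zfp786 and Zfp398 overlap, so 1 peak can be counted for both genes. In the SMAD2-HA/+ lists they shared 1 H3K27ac peak. The mark was present at Zfp786 with and without GDF9.

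SMAD peaks in SMAD3-PA/PA GCs were fewer and varied between replicates. A SMAD2 peak was at 49 member promoters (18.0%) with GDF9 and at 15 (5.51%) with vehicle in both replicates, against 16.6% and 2.09% of other genes with a mean of at least 50. Single lists gave 86 and 115 members with GDF9 and 98 and 24 with vehicle, so the treatments overlapped. SMAD4 peaks were at 59 and 54 members (21.7% and 19.9%, against 24.3% and 18.6% of those other genes), and peaks of the PA tag on SMAD3 at 7 and 6 (2.57% and 2.21%, against 1.02% and 1.68%). At Zfp786 a SMAD2 peak was listed in GDF9 replicate 1 only and a SMAD4 peak in all 4 SMAD4 lists, and no PA peak was listed. At Zfp398 a SMAD2 peak was listed in GDF9 replicate 2 only and a SMAD4 peak in all 4 lists. A SMAD4 peak can be counted for both genes where their windows overlap. The 49 members with the SMAD2 peak under GDF9 had a median log2 fold change of 0.001, and the 223 without had 0.03. Called were 2 of the 49, Zfp182 and Zfp24, and 7 of the 223. Over all tested genes 3.14% were called in either direction, and a link between peak and call was not tested.

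In SMAD2-HA/+ GCs, SMAD peaks were more numerous. Counted in both replicates, and in contrast to the counts above, they were at fewer members with GDF9 than with vehicle. The same SMAD2 antibody gave a peak in both replicates at 180 members (66.2%) with GDF9 and 221 (81.2%) with vehicle, against 66.2% and 77.3% of other genes at or above a mean of 50. The SMAD3 antibody gave 227 (83.5%) and 245 (90.1%), against 81.6% and 88.8% of those genes. Peaks of the HA tag on SMAD2 lay at 209 (76.8%) and 230 (84.6%), against 77.9% and 85.7%. Single HA lists gave 211 and 254 members with GDF9 and 241 and 251 with vehicle, so the treatments overlapped for HA. Single lists did not overlap for SMAD2 (204 and 214 against 236 and 240) or SMAD3 (238 and 248 against 251 and 255). The same held for the other genes at or above a mean of 50. Their single lists gave 74.9% and 78.8% with GDF9 against 83.5% and 85.3% with vehicle for SMAD2. For SMAD3 they gave 86.0% and 89.1% against 91.4% and 92.8%, so the lack of overlap was not particular to members. Zfp786 and Zfp398 each had a SMAD2, a SMAD3 and an HA peak in all 4 lists of that antibody, with GDF9 and with vehicle. Because their windows overlap, a peak can be counted for both, so these are not separate observations for each gene. All 9 called members had an HA peak in all 4 HA lists, but in both replicates it was also at 76.8% (GDF9) and 84.6% (vehicle) of all members. The difference between the 2 lines in the direction of the SMAD2 counts was not tested.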

How the data were processed

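Poly-A RNA-seq and CUT&RUN were measured in primary mouse GCs. Per the labels and the study's methods, the authors aligned RNA-seq reads to mm10 with STAR 2.7.11b, assigned them to genes with featureCounts 2.1.1 and normalized them with DESeq2 1.48.2; the deposited signal values are normalized counts, reads divided by 1 size factor per library. For the counting, annotation and strand setting were not given in the sources used here. Whole reads were recovered for 3 libraries, and the step of the remaining one lay too close to 1 for that check; 100% of values were whole within 0.05 reads. The table also had 1314 entries without values (0.311% of summed means) and 3 unnamed columns, which were not used. The deposited CUT&RUN peak lists, called by the authors per replicate after spike-in scaling, give each peak's signal, and only presence was used.

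Groups were taken from the sample titles, 2 libraries each. Log2(normalized count + 1) of genes with a mean of at least 10 was fitted with limma 3.58.1 (trended empirical Bayes, R 4.3.3), Benjamini-Hochberg adjusted over 12597 genes. The fit was also run on simulated reads with known changes, and no result here rests on that run. The named members are those called, the 10 highest and 10 lowest, Zfp786, the 5 highest per length, those at the limit, and listed genes. Members and lists were chosen with earlier results of these data known. Coding sequences, starts and exons came from RefSeq on GRCm38.p6 (the mm10 assembly); fingers, KRAB and SCAN are amino acid patterns, so a missed pattern does not show a missing domain. Alternatives were other offsets, filters, scalings, edgeR 4.0.16, DESeq2 1.42.0, a replicate block and leaving out each library.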

Additional observations from a re-analysis of the deposited data

How the results depend on the processing

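The 8 higher and 1 lower member calls were the same 9 genes with an offset of 0.5 or 5, a mean of at least 50, TMM scaling, median centring, edgeR, and no limit on the fold change. Without a filter on low counts, 3 members were called higher and 0 lower, 187 genes in all, 0 TRIM28 partners and 1 gene of the other zinc finger families; DESeq2 called 2 and 0 members, 128 genes, 0 partners and 1 gene of the other families, against 396, 1 and 7 in the limma fit of all 4 libraries. At an unadjusted p under 0.05, limma gave 12 members lower. Leaving out 1 library gave 5 to 7 members higher, 1 to 3 lower, 215 to 583 genes in all, 0 to 1 partner, 2 to 8 genes of the other families, and a family median from 0.0045 to 0.052. Over these fits the log2 fold change of Zfp472 ran from −0.59 to 0.085 and that of Zfp764 from −0.51 to 0.0097, positive without GDF9 replicate 1 and lowest without GDF9 replicate 2. The difference between replicates 1 and 2 was not correlated between the treatments (correlation 0.005 over genes). Whether the replicate numbers pair the libraries is not stated in the sources used here. With a replicate block 10 members were called higher and 4 lower, with all 9 among them. Calls over all tested genes rose as well, from 307 higher and 89 lower to 393 and 142.

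At promoters, requiring 50% of the peak inside left 18 and 5 members with H3K27ac in SMAD2-HA/+ GCs (GDF9 and vehicle), where the peaks are long. In SMAD3-PA/PA GCs, a promoter of 1 kb left 7 members with SMAD2 under vehicle and 35 and 29 with SMAD4, and keeping the 50% of peaks with the highest maximum left 32 and 8 with SMAD2. Single replicates gave 86 to 115 and 24 to 98 members for SMAD2 (GDF9 and vehicle), 107 to 115 and 106 to 116 for SMAD4, and 20 to 24 and 32 to 38 for PA. The cause of these shifts was not tested, beyond the construction of each alternative. With 2 libraries a group, members with a mean under 100 had SEs from 0.15 to 0.22, so small changes there were not detectable.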

Other observations

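Other families with zinc finger symbols held 148 tested genes, of which 5 were called higher and 2 lower (4.73%, against 3.14% of all tested genes called in either direction). Zc3h7a, a CCCH-type RNA-binding protein gene, had 1123 and 1044 normalized counts with GDF9 and 843 and 784 with vehicle (log2 fold change 0.41, limma with Benjamini-Hochberg adjusted p = 2.00e-05). Zbtb20, a BTB-domain repressor gene, had 306 and 312 against 242 and 232 (0.38, limma adjusted p = 0.0142). Zmym6 (0.37), Zmym3 (0.27) and Zdhhc16 (0.26), the last for a palmitoyltransferase, were also called higher, and Zfp280b (−0.23) and Sp3 (−0.21) lower. None of 21 Zscan and Zkscan genes was called by limma, edgeR or DESeq2, and 3 had an unadjusted limma p under 0.05.

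Among 54 tested Zfp symbols with a mean under 50, none was called by limma, edgeR or DESeq2, 4 had an unadjusted limma p under 0.05, and their median log2 fold change was 0.06. Zfp345 had the largest difference, with 3.02 and 10.6 normalized counts with GDF9 and 11.5 and 15.1 with vehicle (−1.05, limma adjusted p = 0.297). Zfp689 had the highest positive value, with 45.3 and 44.5 normalized counts with GDF9 and 29.9 and 25.7 with vehicle (0.68, limma adjusted p = 0.135).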
